A study of Mus musculus with 8 samples.

Results

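The genes described here are the structural components of the basement membrane and of the interstitial matrix, in 8 exon arrays of mouse keratinocytes. The members were a list of 56 gene symbols, and a member was counted as measured where the deposited table held a transcript cluster annotated to that symbol alone. That left 49 measured members of 14860 genes in all, 19 of 22 basement membrane members and 30 of 34 interstitial members. Lama5, Lamb2, Frem2, Spp1, Efemp2, Fbn1 and Lox had no cluster of their own and have no value here.

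All cells were MK546, an epidermal keratinocyte line from α3-null newborn mice immortalized with SV40 large T antigen, so every line shares the deletion of the mouse α3 integrin gene and the viral oncogene. The null line carried no added integrin, the α3 line carried human α3 by stable transfection, the α9 line carried human α9 by retroviral transduction, and the α3α9 line carried both. Each of the 4 lines had 2 arrays and each combination is 1 line, so a difference between lines can also be one between the cells from which they were grown. All lines grew at 33 °C on denatured rat tail collagen, in low-calcium medium with hydrocortisone, insulin, EGF and interferon-γ. The labels call the arrays biological replicates without naming separate cultures, and the p-values below reflect array-to-array spread alone, possibly only technical. The titles of the null and α3 arrays carry a re-analysis mark that those of the α9 and α3α9 arrays lack. Comparisons of lines with and without α9 therefore also compare 2 sets of arrays, and the integrin and the set cannot be told apart.

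A basement membrane is a thin sheet under an epithelium in which a laminin network and a collagen IV network are tied together by nidogens and heparan sulfate proteoglycans. The interstitial matrix beyond it is built from fibrillar collagens, fibronectin, elastic fibres and small proteoglycans, and in skin it is mostly made by dermal fibroblasts, while keratinocytes make much of the epidermal basement membrane. Integrin α3β1 is a keratinocyte receptor for laminins, and α9β1 binds matrix proteins such as tenascin-C and osteopontin. The comparisons ask which matrix transcripts differ between lines with and without α3, whether α9 changes that difference, and which differ with α9.

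Values are the deposited intensities on a linear scale. No measure of background was among the values used, and probes of different genes differ in brightness, so intensities are compared only within a gene. Array medians lay between 82.8 and 127, and the 2 extremes were both α3α9 arrays. The residual SD was 0.42 on the log2 scale in the α3α9 line against 0.21 to 0.27 in the other lines. The keratinocyte keratins Krt5 and Krt14 were at 13264 to 14926 and 11005 to 12893 on all arrays, so the defining keratins of the labelled cell type were present. The 7 measured fibroblast markers ranged from 11.7 to 178 over all arrays, with S100a4 the highest, and 0 of the markers of any list was listed at 0. Of the 7 endothelial markers Pecam1 and Cdh5 were at no more than 71.5, while Egfl7 was at 215 to 647. Of the leukocyte markers Ptprc was at no more than 36.5, while Cd68 was at 364 to 1035. The clusters of the mouse genes Itga3 and Itga9 did not pass the test in any comparison on the deposited scale, and after quantile normalization Itga9 was higher in the α3α9 line than in the α3 line (adjusted p = 0.0429). Itga3 read 1008 and 934 in null cells, 1309.7 and 1181 in α3 cells, 1135 and 772 in α9 cells and 819 and 1358 in α3α9 cells, so the lines with and without α3 overlapped. The added subunits are human and the array was designed for mouse, and which part of Itga3 is deleted is not given in the labels, so these values do not check the labels.

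Intensity ranges are given for members at both ends of the scale as a description of the probes' signal, not as an order of transcript levels. Ecm1, which encodes a glycoprotein of the skin matrix, ranged from 1490 to 2967 over the 8 arrays. Col18a1, the basement membrane collagen from which endostatin is cut, ranged from 1330 to 2214, and Tinagl1, a secreted basement membrane glycoprotein, from 977 to 2014. Col18a1 was at 1414 and 1571 in null cells, 1330 and 1403 in α3 cells, 2202 and 1644 in α9 cells and 1814 and 2214 in α3α9 cells. Dcn, the small proteoglycan decorin, ranged from 11.3 to 33.4. Of the 49 measured members, 24 lay under the array median on every array and 18 above it on every array. In bulk RNA a transcript made by fewer cells and one made at a lower level per cell cannot be told apart.

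Differences are given as log2 differences of intensity + 16 with their SE, which understates the difference of dim transcripts, and adjusted p-values come from limma over all 23332 clusters with a threshold of 0.05. In the α3 line against the null line, 2 of 49 members passed (4.08%), against 1.3% of all clusters. Npnt was higher and Tgfbi lower in the α3 line. In the α3α9 line against the α9 line 3 members passed (6.12%), against 1.87% of all clusters. Npnt and Col4a1 were higher and Tgfbi lower. With the 2 comparisons averaged, which uses all 8 arrays, 6 members passed (12.2%), against 3.32% of all clusters, with Npnt, Col4a1, Col4a2, Ntn4 and Col12a1 higher and Tgfbi lower. Of these 6 members 4 were among the 19 of the basement membrane and 2 among the 30 of the interstitial matrix.

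**Figure D1:**
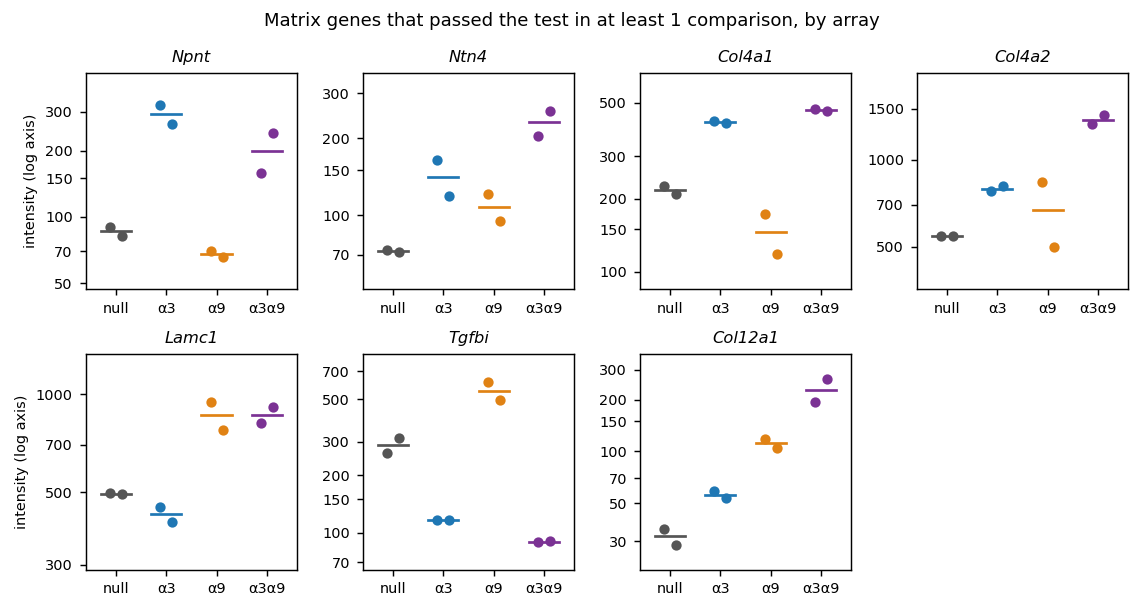
Intensity on each of the 8 arrays (points, log axis, own range in each panel) and mean of each line's 2 arrays (bars) for the 7 members that passed the test in at least 1 comparison. Npnt and Col4a1 are higher in both lines with α3, Tgfbi is lower in both, and Col12a1 is separate between all 4 lines.

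Npnt encodes nephronectin, a basement membrane protein and ligand of integrin α8β1. Its intensities were 90.03 and 82.3 in null cells, 321 and 263 in α3 cells, 69.9 and 65.9 in α9 cells and 159 and 239 in α3α9 cells. Both arrays of each line with α3 lay above all 4 arrays without it, and the order α3, α3α9, null and α9 held with no overlap between neighbours. The α3 line exceeded the null line by 1.59 (SE 0.23, adjusted p = 0.00873), and the α3α9 line exceeded the α9 line by 1.33 (SE 0.23, adjusted p = 0.0191). The average of the 2 differences was 1.46 (SE 0.16, adjusted p = 0.00085), and this call held in all 14 alternatives. The first call was lost without null array 1, null array 2 or α3 array 1, with adjusted p from 0.000699 to 0.127 over the alternatives. The second was lost with a pseudocount of 1 and without either α9 array, with adjusted p from 0.00107 to 0.119.

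Tgfbi encodes a secreted protein that is induced by TGF-β, binds collagen and carries an integrin-binding motif. It was at 261 and 313 in null cells, 117 and 116 in α3 cells, 615 and 494 in α9 cells and 89.6 and 90.1 in α3α9 cells. The lines with α3 were low and those without it high, again with no overlap between neighbouring lines, and the mean of the α9 line was 6.17 times that of the α3α9 line. Tgfbi fell by 1.19 in the α3 line against the null line (SE 0.21, adjusted p = 0.0205). It fell by 2.42 in the α3α9 line against the α9 line (SE 0.21, adjusted p = 0.000341) and by 1.81 on average (SE 0.15, adjusted p = 0.000104). The latter 2 calls held in all 14 alternatives. The call against the null line was lost with a pseudocount of 1 and without null array 1, null array 2, α3 array 1 or α3 array 2, with adjusted p from 0.00826 to 0.259.

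Col4a1 and Col4a2 encode the chains of the main collagen IV trimer, the network-forming collagen of basement membranes, and are transcribed from neighbouring start sites in opposite directions. Col4a1 was at 227 and 210 in null cells, 422 and 413 in α3 cells, 173 and 119 in α9 cells and 474 and 460.5 in α3α9 cells. Both lines with α3 were high and their arrays did not overlap those without it. The difference was 0.89 (SE 0.22, adjusted p = 0.106) against the null line and 1.60 (SE 0.22, adjusted p = 0.00517) against the α9 line, with an average of 1.24 (SE 0.15, adjusted p = 0.00152). After quantile normalization the first difference passed as well, at 0.83 (adjusted p = 0.046). The average held in all 14 alternatives, and the call against the α9 line was lost only without α9 array 2, with adjusted p from 0.00112 to 0.0517 over the 14.

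Col4a2 was at 546 and 545 in null cells, 778 and 814 in α3 cells, 838 and 501 in α9 cells and 1331 and 1424 in α3α9 cells. The α3α9 arrays were above all others, while α9 array 1 lay above both α3 arrays, so the lines with and without α3 overlapped. Col4a2 passed only as the average (0.80, SE 0.18, adjusted p = 0.0391). Its difference was 0.53 (SE 0.25, adjusted p = 0.495) against the null line and 1.07 (SE 0.25, adjusted p = 0.0719) against the α9 line, and the latter passed after quantile normalization (adjusted p = 0.0188). The averaged call was lost in 8 of the 14 alternatives, among them a pseudocount of 1 and leaving out null array 1, null array 2, α3 array 1, α3 array 2, α9 array 2 or α3α9 array 2, with adjusted p from 0.0109 to 0.143.

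The promoter windows of these members are shown because those of Col4a1 and Col4a2 overlap and both genes passed in the averaged α3 comparison, and because Npnt and Tgfbi passed in both α3 comparisons in opposite directions. Each runs from 250 bases before to 50 after the RefSeq start site on assembly GRCm38.p6, 5′ to 3′ on the gene's own strand. For Npnt 2 windows were listed, and the first is shown. Capitals mark matches on either strand to the GC box GGGCGG, the CCAAT box, the TATA box TATAAA or the AP-1 motif TGANTCA. The windows are Col4a1 at chr8:11312777-11313076 on the minus strand, Col4a2 at chr8:11312555-11312854 on the plus strand, Npnt at chr3:132950242-132950541 on the minus strand and Tgfbi at chr13:56609336-56609635 on the plus strand.
Col4a1: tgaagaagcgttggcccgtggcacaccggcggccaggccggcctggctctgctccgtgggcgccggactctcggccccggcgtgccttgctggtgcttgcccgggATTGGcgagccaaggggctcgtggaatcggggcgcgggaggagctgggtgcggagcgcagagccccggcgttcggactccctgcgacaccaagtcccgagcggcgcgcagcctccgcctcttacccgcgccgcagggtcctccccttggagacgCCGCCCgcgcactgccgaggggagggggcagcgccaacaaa
Col4a2: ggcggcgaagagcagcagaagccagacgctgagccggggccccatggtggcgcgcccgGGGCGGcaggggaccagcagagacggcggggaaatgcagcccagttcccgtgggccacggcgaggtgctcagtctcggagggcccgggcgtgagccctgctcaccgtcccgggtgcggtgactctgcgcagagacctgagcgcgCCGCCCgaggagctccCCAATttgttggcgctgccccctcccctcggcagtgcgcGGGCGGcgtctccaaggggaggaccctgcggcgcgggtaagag
Npnt: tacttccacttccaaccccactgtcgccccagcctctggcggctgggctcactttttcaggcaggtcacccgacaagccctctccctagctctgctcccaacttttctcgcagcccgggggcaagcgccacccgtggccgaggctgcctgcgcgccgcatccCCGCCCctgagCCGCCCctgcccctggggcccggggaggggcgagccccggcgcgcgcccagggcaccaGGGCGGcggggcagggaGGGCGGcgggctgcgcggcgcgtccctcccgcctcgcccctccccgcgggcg
Tgfbi: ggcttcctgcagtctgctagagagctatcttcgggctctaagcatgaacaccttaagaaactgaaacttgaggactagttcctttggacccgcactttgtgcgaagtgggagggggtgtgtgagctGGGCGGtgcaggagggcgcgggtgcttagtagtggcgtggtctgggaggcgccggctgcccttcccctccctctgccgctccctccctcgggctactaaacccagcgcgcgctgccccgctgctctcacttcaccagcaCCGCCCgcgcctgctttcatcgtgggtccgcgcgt
The start sites of Col4a1 and Col4a2 lie 21 bases apart and their windows share 78 bases. Col4a1 held 1 GC box and 1 CCAAT box, Col4a2 held 3 and 1, Npnt held 4 GC boxes and Tgfbi 2, and 0 TATA boxes or AP-1 motifs were found in the 4 windows. The GC box of Col4a1 is the same site as 1 of the 3 of Col4a2, within the shared bases. Over 32851 promoter windows of this length, 35.7% held a GC box, 37.4% a CCAAT box, 13.6% a TATA box and 7.81% an AP-1 motif. A match is a description of the letters and not evidence of a binding site.

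**Figure D2:**
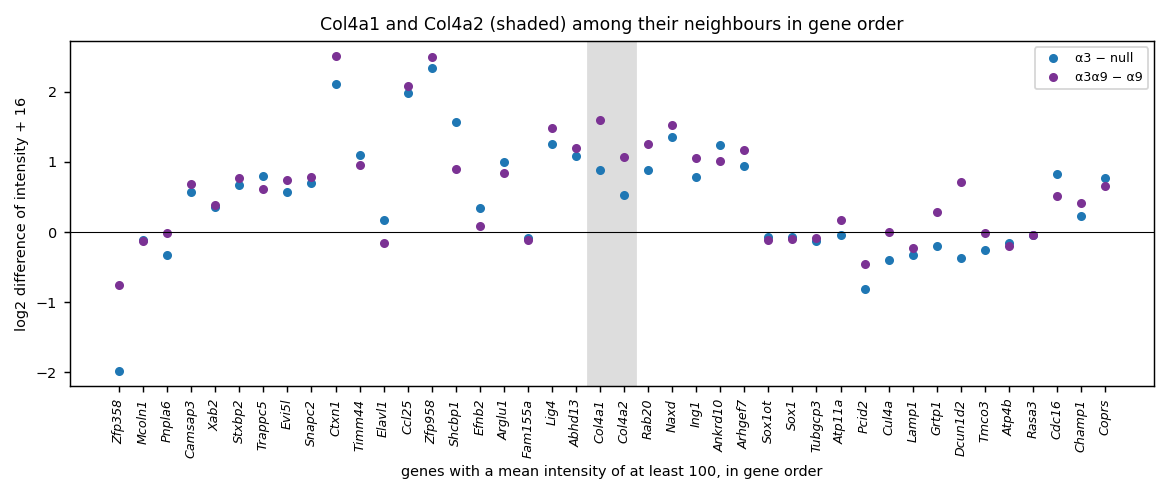
Log2 difference of intensity + 16 for genes in chromosomal order around Col4a1 and Col4a2 (shaded), limited to genes with a mean intensity of at least 100, for α3 minus null (blue) and α3α9 minus α9 (purple). The 7 genes from Lig4 to Arhgef7 other than the shaded pair lie between 0.79 and 1.53, and the next 4 genes, Sox1ot to Atp11a, lie between -0.13 and 0.17 in both comparisons.

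Genes beside the collagen IV pair were also higher in the lines with α3. Among the 40 nearest expressed genes on both sides (mean intensity of at least 100), the median difference was 0.46 against the null line, 0.57 against the α9 line and 0.50 on average, against 0.024, -0.0042 and 0.011 over all expressed genes. In the average 15 of these 40 passed as higher and 1 as lower. The 7 genes next to the pair were Lig4, Abhd13, Rab20, Naxd, Ing1, Ankrd10 and Arhgef7, among them the DNA ligase Lig4 and the chromatin protein Ing1. Their differences ranged from 0.79 to 1.36 against the null line and from 1.01 to 1.53 against the α9 line, and all 7 passed in the average. The 4 genes that follow, Sox1ot to Atp11a, ranged from -0.13 to -0.042 and from -0.11 to 0.17. With 15 of the 40 passing as higher in the average, such calls were not limited to the 7 genes. Of the 40 neighbours, 5 exceeded Col4a1 and 13 exceeded Col4a2 in the average. The part of the neighbourhood in the collagen IV differences was not tested.

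Around Npnt and Tgfbi the neighbours did not move with the member. The medians of the 40 neighbours of Npnt were -0.17 and -0.062 in the comparisons with the null and the α9 line, and 0 of them exceeded it. Those of Tgfbi were 0.15 and 0.092, and all 40 lay above it. Around Ntn4 the medians were -0.34 and -0.29, opposite in sign to Ntn4.

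Ntn4 encodes netrin-4, a laminin-related protein that binds into the laminin network. It was at 72.9 and 72.0 in null cells, 164 and 118 in α3 cells, 121 and 94.5 in α9 cells and 205 and 257 in α3α9 cells. The null arrays were the lowest and the α3α9 arrays the highest, and the α3 and α9 lines overlapped. The differences were 0.82 (SE 0.23, adjusted p = 0.178) against the null line and 0.99 (SE 0.23, adjusted p = 0.0713) against the α9 line. Their average of 0.91 passed (SE 0.16, adjusted p = 0.0144). It was lost with a pseudocount of 1 and without null array 1, null array 2, α3 array 1 or α9 array 2, with adjusted p from 0.0021 to 0.0902.

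Col12a1 encodes a collagen that sits on the surface of collagen fibrils, and it differed with both integrins. Its intensities were 35.3 and 28.6 in null cells, 58.6 and 53.2 in α3 cells, 118 and 105 in α9 cells and 195 and 264 in α3α9 cells. The 4 lines were separate in that order, and the mean of the α3α9 line was 7.17 times that of the null line. The α3 differences were 0.59 (SE 0.22, adjusted p = 0.336) and 0.93 (SE 0.22, adjusted p = 0.0716), and their average of 0.76 passed (SE 0.15, adjusted p = 0.0262). That call was lost in 8 of 14 alternatives, among them a pseudocount of 1 and leaving out either null, either α3 or either α9 array, with adjusted p from 0.00228 to 0.144.

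Most other members showed small α3 differences. Over the 49 members the median was -0.024 against the null line and -0.11 against the α9 line, against 0.0125 and -0.062 over all clusters. On the deposited scale 25 of 30 interstitial members were below 0 against the α9 line, and 19 of 30 against the null line. The median of all clusters was itself below 0 against the α9 line, and these counts were not tested. The 2 α3 comparisons share no arrays, and 33 of 49 members (67.3%) had the same sign in both, against 61.3% of all clusters. Excluding Col12a1, the 8 other interstitial collagens, from Col1a1 to Col8a1, lay between -0.25 and 0.49 in both comparisons. Fn1, which encodes fibronectin, was at 56.8 and 50.9 in null cells, 76.8 and 65.4 in α3 cells, 63.2 and 60.8 in α9 cells and 42.0 and 67.8 in α3α9 cells. The α3 arrays of Fn1 were above the null arrays and the α3α9 arrays spanned the α9 arrays, and Fn1 passed in no comparison.

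**Figure D3:**
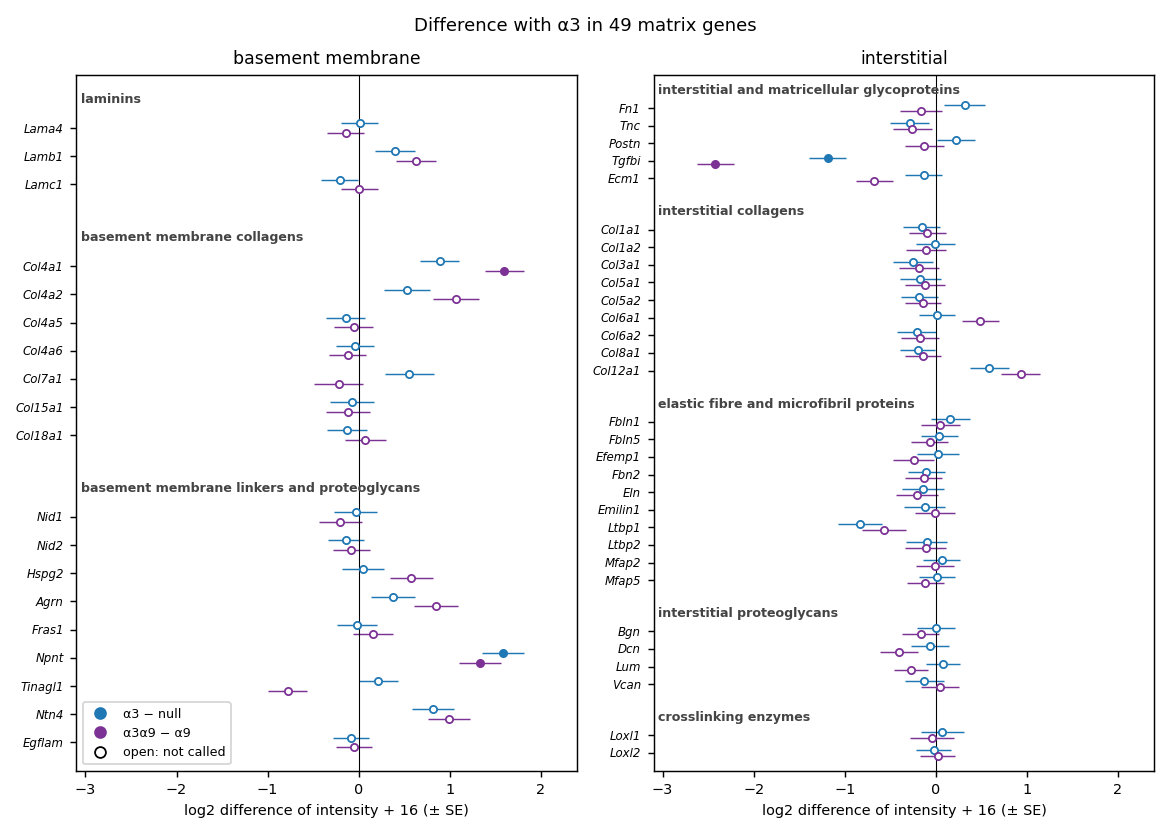
Log2 difference of intensity + 16 (points, bars are SE) of the 49 measured members by role, for α3 minus null (blue) and α3α9 minus α9 (purple), with filled points for those that passed the test. Npnt, Col4a1, Col4a2, Ntn4 and Col12a1 lie to the right in both comparisons and Tgfbi to the left, and most others lie within 0.5 of 0.

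More members passed once the arrays were quantile normalized, and so did more clusters in all. The counts were 6 members (12.2%) against the null line, 11 (22.4%) against the α9 line and 12 (24.5%) in the average, against 8.24%, 9.98% and 16.2% of all clusters. Over all clusters the deposited scale gave 221 higher and 82 lower calls against the null line and 244 and 192 against the α9 line, and the quantile scale gave 1046 and 877, and 1324 and 1004. In the average the split was 502 higher and 272 lower, and 1971 and 1806 after quantile normalization.

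Ltbp1, which encodes a binding protein of latent TGF-β, passed in both α3 comparisons after quantile normalization and in neither on the deposited scale. It was at 641 and 587 in null cells, 340 and 336 in α3 cells, 897 and 601 in α9 cells and 430 and 557 in α3α9 cells. Each line with α3 was lower than its partner without it, with no overlap in either pair. On the quantile scale Ltbp1 fell by 0.89 (adjusted p = 0.0135) and by 0.61 (adjusted p = 0.0362), and on the deposited scale the adjusted p was 0.193 and 0.394.

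Lamb1, the laminin β1 chain, and Agrn, the heparan sulfate proteoglycan agrin, were higher in the α3α9 line than in the α9 line on the quantile scale and did not pass on the deposited scale. Lamb1 was at 785 and 853 in null cells, 1068 and 1103 in α3 cells, 901 and 657 in α9 cells and 1129.7 and 1275 in α3α9 cells. Agrn was at 436 and 355 in null cells, 518 and 511 in α3 cells, 525 and 338 in α9 cells and 733 and 812 in α3α9 cells. Both were highest in the α3α9 line, with differences against the α9 line on the quantile scale of 0.62 (adjusted p = 0.0424) for Lamb1 and 0.79 (adjusted p = 0.0397) for Agrn. On the deposited scale these were 0.63 (adjusted p = 0.255) and 0.85 (adjusted p = 0.154).

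Tinagl1 and Ecm1 were lower in the α3α9 line than in the α9 line on the quantile scale and did not pass on the deposited scale. Tinagl1 was at 1465 and 1668 in null cells, 2014 and 1639.6 in α3 cells, 1922 and 1894 in α9 cells and 977 and 1246 in α3α9 cells. Ecm1 was at 1535 and 1804 in null cells, 1545 and 1489.9 in α3 cells, 2967 and 2571 in α9 cells and 1595 and 1863 in α3α9 cells. The low line was α3α9 for Tinagl1, and the high line was α9 for Ecm1, each apart from the other 3. On the quantile scale Tinagl1 fell by 0.76 (adjusted p = 0.0102) and Ecm1 by 0.62 (adjusted p = 0.0268) in this comparison, with adjusted p of 0.14 and 0.185 on the deposited scale. Tnc and Col3a1 passed as lower in the average on the quantile scale, and their arrays with and without α3 overlapped.

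For α9, 2 of 49 members passed in the α9 line against the null line (4.08%), against 4.32% of all clusters, and 2 in the α3α9 line against the α3 line (4.08%), against 3.28% of all clusters. All of these calls were higher with α9. The share of members called was near that of all clusters, so these counts are not a result about the matrix genes. On the deposited scale 43 of 49 members were above 0 against the null line, and the median over all clusters was itself 0.16. Relative to that shift the members' median of 0.16 was level, and after quantile normalization 25 of 49 were above 0. In the comparison with the α3 line the median was 0.11 over members and 0.099 over all clusters.

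Col12a1 was higher with α9 in both comparisons, by 1.41 against the null line (SE 0.22, adjusted p = 0.00924) and by 1.76 against the α3 line (SE 0.22, adjusted p = 0.00354). The second call held in all 14 alternatives. The first was lost without null array 1, null array 2 or α9 array 1, with adjusted p from 0.00181 to 0.091. Among the 40 neighbours of Col12a1, 0 exceeded it in either comparison, and their medians were 0.35 and 0.23.

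Lamc1 encodes the laminin γ1 chain, which most laminin trimers contain. It was at 497 and 495 in null cells, 450.4 and 406 in α3 cells, 949 and 779 in α9 cells and 816 and 917 in α3α9 cells. Both lines with α9 were high and overlapped each other, and both lines without it were low. The difference was 0.78 against the null line (SE 0.20, adjusted p = 0.0637) and 0.99 against the α3 line (SE 0.20, adjusted p = 0.0322). The second was lost in 6 of 14 alternatives, among them a pseudocount of 1 and leaving out either null or either α3 array, with adjusted p from 0.00557 to 0.229.

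Tgfbi was higher in the α9 line than in the null line by 0.91 (SE 0.21, adjusted p = 0.0385) and was not called between the α3α9 and the α3 line, where the difference was -0.32 (SE 0.21, adjusted p = 0.436). The first call was lost in 8 of 14 alternatives, among them a pseudocount of 1 and leaving out either null, either α3 or either α9 array, with adjusted p from 0.0179 to 0.345.

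**Figure D4:**
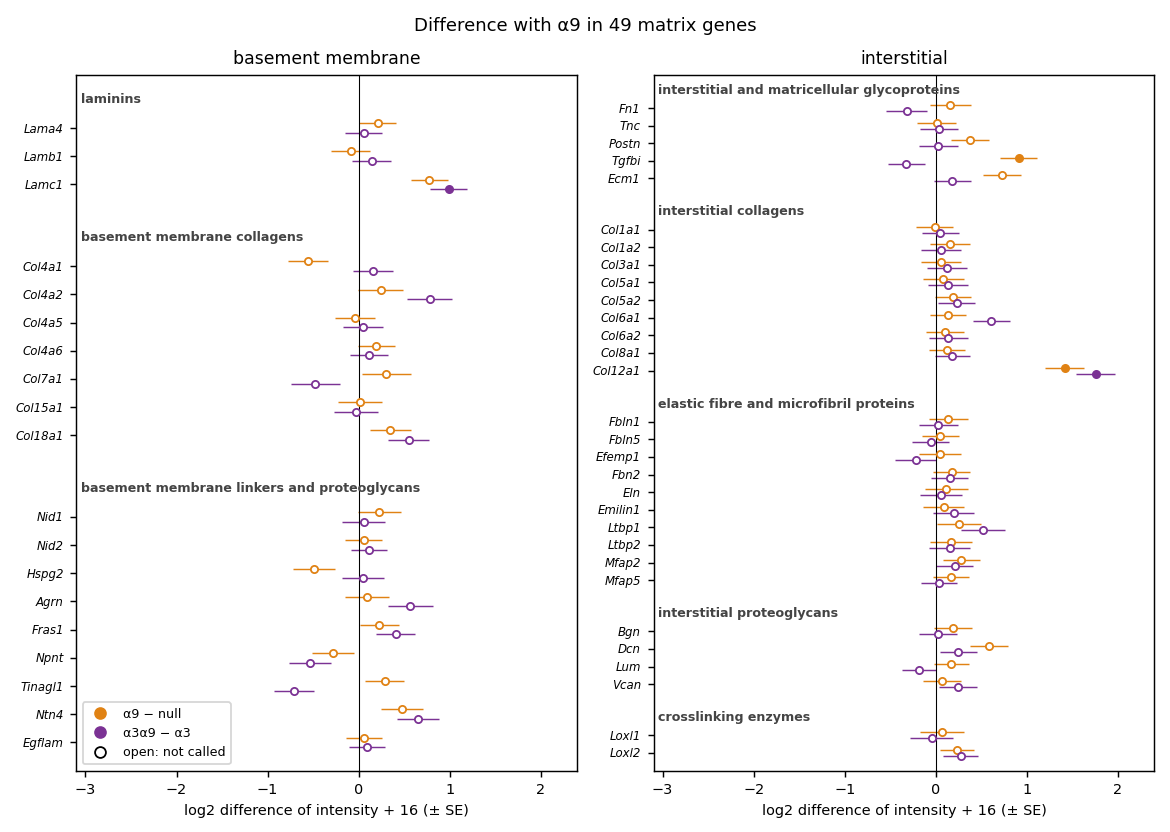
Log2 difference of intensity + 16 (points, bars are SE) of the 49 measured members by role, for α9 minus null (orange) and α3α9 minus α3 (purple), with filled points for those that passed the test. Col12a1 lies farthest to the right in both comparisons, and most members lie slightly to the right of 0, as does the median of all clusters.

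After quantile normalization 8 members passed in each α9 comparison (16.3%), against 17.2% and 18.8% of all clusters. Over all clusters the deposited scale gave 817 higher and 192 lower calls against the null line and 499 and 266 against the α3 line, and the quantile scale gave 2066 and 1942, and 2352 and 2046. On the deposited scale 0 members passed as lower with α9, and by quantile normalization those that did were Col4a1, Hspg2 and Npnt against the null line and Col7a1, Npnt and Tinagl1 against the α3 line. Those that passed as higher were Col12a1, Tgfbi, Lamc1, Ecm1 and Dcn against the null line and Col12a1, Lamc1, Ntn4, Col6a1 and Fras1 against the α3 line.

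Hspg2 encodes perlecan, a large heparan sulfate proteoglycan of basement membranes. It was at 344 and 297 in null cells, 331 and 333 in α3 cells, 261 and 191 in α9 cells and 297 and 395 in α3α9 cells. The α9 line was the lowest and apart from the others, by -0.65 against the null line on the quantile scale (adjusted p = 0.0161) and by -0.49 on the deposited scale (adjusted p = 0.28). Col7a1, the collagen of the anchoring fibrils that fasten the epidermis to the dermis, was at 249 and 213 in null cells, 357 and 338 in α3 cells, 367 and 226 in α9 cells and 203 and 296 in α3α9 cells. The α3 arrays of Col7a1 lay above the α3α9 arrays and within the range of the α9 arrays, and on the quantile scale it fell by 0.65 in the α3α9 line against the α3 line (adjusted p = 0.0234).

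Dcn, Col6a1 and Fras1 were dim members whose α9 differences passed on the quantile scale and not on the deposited scale. Dcn was at 13.9 and 14.7 in null cells, 14.5 and 11.3 in α3 cells, 33.4 and 25.5 in α9 cells and 14.98 and 21.99 in α3α9 cells. Its α9 arrays were the highest, and the null and α3 arrays lay under the pseudocount of 16, so the size of this difference depends on that choice. Col6a1, a chain of the microfibrillar collagen VI, was at 76.4 and 81.5 in null cells, 81.7 and 78.1 in α3 cells, 84.4 and 92.2 in α9 cells and 117 and 146 in α3α9 cells. The α3α9 arrays stood apart, with an adjusted p of 0.0387 against the α3 line on the quantile scale and 0.123 on the deposited scale. Fras1, part of a protein complex under the epidermis of the embryo, was at 45.9 and 47.6 in null cells, 50.8 and 41.6 in α3 cells, 61.7 and 53.6 in α9 cells and 54.7 and 79.4 in α3α9 cells. The 4 arrays with α9 were above the 4 without it, and the adjusted p against the α3 line was 0.0318 on the quantile scale and 0.349 on the deposited scale.

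Whether the α3 difference changes with α9 was tested as an interaction. By limma 0 of 49 members passed, with 3 at an unadjusted p under 0.05 (Col4a1, Tinagl1 and Tgfbi), and 20 of all 23332 clusters passed (0.0857%) with 1329 at an unadjusted p under 0.05. After quantile normalization 0 members passed, against 0.737% of all clusters. On that scale 7 of the 49 members and 3672 of all 23332 clusters had an unadjusted p under 0.05. The interaction of Tgfbi was -1.23 (SE 0.29, adjusted p = 0.294), that of Tinagl1 -0.996 (SE 0.31, adjusted p = 0.573) and that of Col4a1 0.71 (SE 0.31, adjusted p = 0.86). The larger Tgfbi and Col4a1 differences in the presence of α9 were therefore not shown to differ from those in its absence.

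The enzymes that modify, process and crosslink collagen were taken as a list of 26, of which 21 were measured. On the deposited scale only Pcolce2 passed in the α3 line against the null line, and only Tgm2 in the α3α9 line against the α9 line. Over all clusters 1.3% and 1.87% passed in these comparisons. On the quantile scale P4ha2 and Plod2 also passed as higher and P4ha1 as lower in both, and Colgalt1 as lower against the α9 line. There 8.24% and 9.98% of all clusters passed. In the averaged α3 comparison 3 were higher and 1 lower on the deposited scale (19.0%), against 3.32% of all clusters. After quantile normalization 7 passed (33.3%), against 16.2% of all clusters, with Plod1 also higher and P4ha1 and Colgalt1 also lower. The arrays of Plod1 and Colgalt1 with and without α3 overlapped. On the quantile scale Colgalt1 differed by 0.0025 between the α3 and null lines and by -0.75 between the α3α9 and α9 lines. P4ha2, a prolyl 4-hydroxylase subunit, was at 447 and 473 in null cells, 850 and 723 in α3 cells, 484 and 331 in α9 cells and 766 and 1010.4 in α3α9 cells. Its 4 arrays with α3 lay above the 4 without it, with an average of 0.93 (SE 0.17, adjusted p = 0.0172). Plod2, a lysyl hydroxylase that acts on collagen telopeptides, was at 292 and 326 in null cells, 739 and 601 in α3 cells, 550 and 366 in α9 cells and 688 and 1190 in α3α9 cells. Its arrays were apart in the same way, with an average of 1.03 (SE 0.21, adjusted p = 0.0269). Both calls were lost in 6 of 14 alternatives, namely a pseudocount of 1 and leaving out either null array, either α3 array or α9 array 2.

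Pcolce2, an enhancer of procollagen C-terminal cleavage, was higher in the α3 line than in the null line by 1.51 (SE 0.26, adjusted p = 0.0185) and in the average by 0.97 (SE 0.18, adjusted p = 0.0177). The first call was lost with a pseudocount of 1 and without either null or either α3 array, and the second with a pseudocount of 1 and without null array 2, α3 array 1 or α9 array 2. Tgm2, a transglutaminase that crosslinks matrix proteins, was at 299 and 336 in null cells, 244 and 252 in α3 cells, 978 and 1158 in α9 cells and 226 and 315 in α3α9 cells. The α9 line alone was high, and the other 3 lines lay close together. Tgm2 fell by 1.93 in the α3α9 line against the α9 line (SE 0.22, adjusted p = 0.00196) and was higher by 1.70 in the α9 line than in the null line (SE 0.22, adjusted p = 0.00484), and both calls held in all 14 alternatives. Its averaged call (-1.13, adjusted p = 0.00298) also held in all 14, though its null arrays overlapped the α3α9 arrays.

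With α9, the lysyl hydroxylase Plod1 and P3h2, a prolyl 3-hydroxylase of collagen, were higher in both comparisons. Plod1 was at 199.9 and 200.2 in null cells, 303 and 261 in α3 cells, 486 and 423 in α9 cells and 566 and 694 in α3α9 cells. Its differences were 1.12 (SE 0.21, adjusted p = 0.0184) and 1.11 (SE 0.21, adjusted p = 0.0228). P3h2 differed by 1.36 (SE 0.21, adjusted p = 0.00963) and 1.08 (SE 0.21, adjusted p = 0.0273). All 4 arrays with α9 were above all 4 without it for both genes. Against the null line the call of Plod1 was lost with a pseudocount of 1 and without either null or either α9 array, and that of P3h2 without either null array or α9 array 1. Against the α3 line both were lost with a pseudocount of 1 and without either α3 array, and P3h2 also without either null array. On the deposited scale only Plod1, P3h2 and Tgm2 of the 21 enzymes passed against the null line, and only Plod1 and P3h2 against the α3 line. Over all clusters 4.32% and 3.28% passed. The median of the 21 enzymes on that scale was 0.33 against the null line and 0.15 against the α3 line, against 0.16 and 0.099 over all clusters. After quantile normalization Plod3 and Colgalt1 also passed as higher against the null line. Against the α3 line Plod3 and Crtap also passed as higher and P4ha1 as lower. With that normalization 17.2% and 18.8% of all clusters passed.

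**Figure D5:**
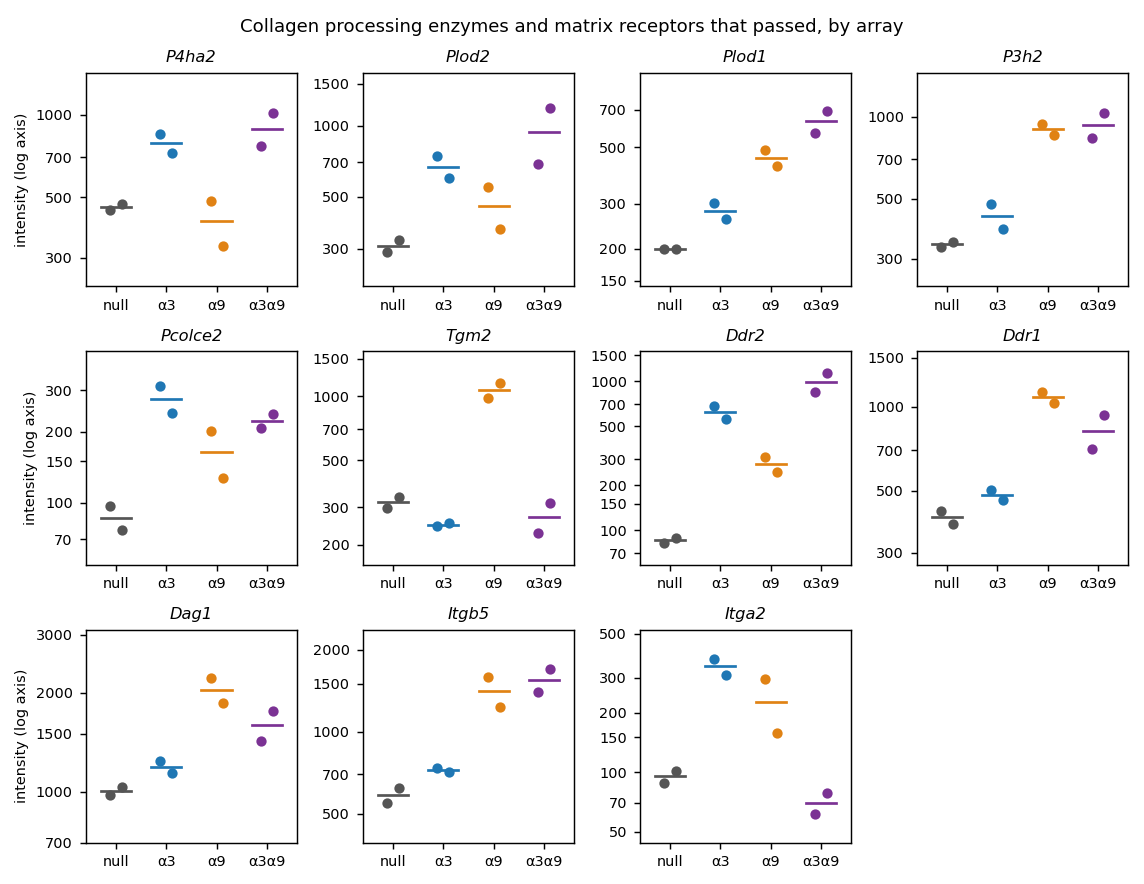
Intensity on each of the 8 arrays (points, log axis, own range in each panel) and mean of each line's 2 arrays (bars) for the 11 collagen processing enzymes and matrix receptors that passed the test in at least 1 comparison. Ddr2 is higher in both lines with α3, Tgm2 is high in the α9 line alone, and Itga2 is high in the α3 line and low in the α3α9 line.

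Of 22 matrix receptors 19 were measured. Of these 2 passed on the deposited scale for α3 against null cells (10.5%) and 2 for α3α9 against α9 cells (10.5%), where 1.3% and 1.87% of all clusters passed, and 4 passed for α9 against null cells (21.1%), where 4.32% of all clusters passed. After quantile normalization these counts were 5 (26.3%), 6 (31.6%) and 7 (36.8%), against 8.24%, 9.98% and 17.2% of all clusters. In the averaged α3 comparison Ddr2 alone passed on the deposited scale (2.21, SE 0.16, adjusted p = 5.48e-05), where 3.32% of all clusters passed. On the quantile scale Itgav also passed as higher, and Itga6, Itgb1 and Sdc4 as lower, where 16.2% of all clusters passed. In the α3α9 line against the α3 line only Itgb5, as higher, and Itga2, as lower, passed on the deposited scale, where 3.28% of all clusters passed. On the quantile scale Itga9, Ddr1 and Ddr2 also passed as higher, and Sdc1, Sdc4 and Cd44 as lower, where 18.8% of all clusters passed. Ddr2, a receptor tyrosine kinase that binds fibrillar collagen, was at 82.3 and 89.1 in null cells, 682 and 555 in α3 cells, 308 and 246 in α9 cells and 850.2 and 1134 in α3α9 cells. The 4 lines were separate, with null lowest and α3α9 highest. Ddr2 was higher by 2.64 in the α3 line than in the null line (SE 0.23, adjusted p = 0.000304) and by 1.78 in the α3α9 line than in the α9 line (SE 0.23, adjusted p = 0.00412). Both calls held in all 14 alternatives. It was also higher in the α9 line than in the null line by 1.52 (SE 0.23, adjusted p = 0.00884), a call lost without either null array or α9 array 1.

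Itga2 encodes the α2 subunit of the collagen receptor α2β1. It was at 88.6 and 102 in null cells, 375 and 311 in α3 cells, 295 and 159 in α9 cells and 61.6 and 78.3 in α3α9 cells. The lines with 1 added integrin were high, and those with neither or both were low. Itga2 was higher by 1.69 in the α3 line than in the null line (SE 0.28, adjusted p = 0.0169). It fell by 1.45 in the α3α9 line against the α9 line (SE 0.28, adjusted p = 0.0319) and by 2.06 against the α3 line (SE 0.28, adjusted p = 0.0057). The first call was lost with a pseudocount of 1 and without either null or either α3 array, the second with pseudocounts of 1 and 64 and without either α3 array, α9 array 1 or α3α9 array 1, and the third without α3 array 1. On the deposited scale Itga2 was the only one of the 19 receptors to pass the interaction test (-3.13, SE 0.40, adjusted p = 0.0262). That call was lost in 7 of 14 alternatives, namely pseudocounts of 1 and 64 and leaving out either null array, either α3 array or α3α9 array 1, with adjusted p from 0.00271 to 0.168.

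With α9, Ddr1, Dag1 and Itgb5 were higher in the α9 line than in the null line, by 1.395, 1.003 and 1.24 (adjusted p = 0.00906, 0.0286 and 0.0143). Ddr1 is the other discoidin-domain collagen receptor, Dag1 encodes the laminin receptor dystroglycan, and Itgb5 the β5 integrin subunit. Itgb5 was also higher in the α3α9 line than in the α3 line, by 1.07 (SE 0.21, adjusted p = 0.0301). The call of Ddr1 against the null line was lost without either null array or α9 array 1, and that of Itgb5 also with a pseudocount of 1. That of Dag1 was lost in 8 of 14 alternatives, among them a pseudocount of 1 and leaving out either null, either α3 or either α9 array. The call of Itgb5 against the α3 line was lost in 6 of 14, among them a pseudocount of 1 and leaving out either null or either α3 array.

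Some markers of cell state moved with the same comparisons. Cdh2, the cadherin of mesenchymal cells, was at 279 and 267 in null cells, 851 and 672 in α3 cells, 362 and 342 in α9 cells and 911 and 1453 in α3α9 cells. It passed in both α3 comparisons (1.42 and 1.67, adjusted p = 0.0231 and 0.00882) and was the only one of 7 mesenchymal markers to pass on the deposited scale. The first call was lost with a pseudocount of 1 and without either null or either α3 array, and the second with a pseudocount of 1 and without α9 array 2. After quantile normalization Twist1 was also higher in the α3 line than in the null line (adjusted p = 0.0401) and in the average (adjusted p = 0.037), Snai2 was lower in the α3α9 line than in the α9 line (adjusted p = 0.0451), and Twist1, Snai2 and Zeb2 were higher in the α9 line than in the null line. Of 8 keratinocyte markers Dsg3 and Col17a1 were lower in the averaged α3 comparison (-0.73 and -0.69, adjusted p = 0.0347 and 0.024). The arrays of Dsg3 with and without α3 overlapped, and both calls were lost in 8 of 14 alternatives, among them a pseudocount of 1 and leaving out either null, either α3 or either α9 array. After quantile normalization Trp63 was also lower in the average (-0.63, adjusted p = 0.00298) and in both single α3 comparisons. On that scale it was lower with α9 as well. The difference was -0.48 against the null line (adjusted p = 0.0247) and -0.59 against the α3 line (adjusted p = 0.0121). Krt15 was higher in the α3α9 line than in the α3 line on that scale (0.76, adjusted p = 0.016). Of 6 leukocyte markers Cd14 was higher in the average (1.04, adjusted p = 0.0129) and Cd68 higher in the α9 line than in the null line (1.11, adjusted p = 0.0367). The call of Cd14 was lost with a pseudocount of 1 and without α3 array 1, and that of Cd68 in 7 of 14 alternatives, namely a pseudocount of 1 and leaving out either null, either α3 or either α9 array. On the deposited scale 0 of the 7 fibroblast, 7 endothelial, 5 melanocyte and 6 smooth muscle markers passed. After quantile normalization S100a4 was lower with α9 (-1.16 against null cells, -1.37 against α3 cells, adjusted p = 0.026 and 0.0144). Fap was higher in α3α9 than in α3 cells on that scale (0.53, adjusted p = 0.0188). S100a4 was at 97.2 to 178 on arrays without α9 and 31.2 to 75.4 on those with it. In the same order Prrx1 was at 63.1 to 92.1 and 102 to 118, and Fap at 21.96 to 24.6 and 32.7 to 47.7. The other fibroblast markers overlapped between arrays with and without α9. The summed intensity of the 7 fibroblast markers was 405 to 426 in null cells, 419 to 441 in α3 cells, 397 to 441 in α9 cells and 357 to 457 in α3α9 cells, and these ranges overlap. The summed intensity of the mesenchymal markers was 2794 to 2972 in null cells, 3211 to 4126 in α3 cells, 4076 to 4900.2 in α9 cells and 3583 to 4820.3 in α3α9 cells. That of the endothelial markers was 431 to 456, 527 to 681, 609 to 701 and 703 to 933 in the same order. The brightest genes weigh most in such sums, and opposite differences within a list, as among the fibroblast markers, can cancel. Egfl7 read 215 to 249 in null, 333 to 446 in α3, 384 to 436 in α9 and 509 to 647 in α3α9 cells. No other endothelial marker exceeded 71.5 on any array. Snai2, at 2028 to 3736 over all arrays, was the largest part of the mesenchymal sum. The part of these markers in the differences of the matrix genes was not tested.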

How the data were processed

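RNA of 4 mouse keratinocyte lines, 2 samples each, was measured on Affymetrix Mouse Exon 1.0 ST arrays. The authors deposited 1 intensity per transcript cluster and array on a linear scale, made with Affymetrix Expression Console and PLIER per the submitters' processing notes, and the series' text names the Exon Array Computational Tool. For versions, build and filters, nothing was given in the sources used here. Samples were grouped by title. Of 23332 clusters 14996 have 1 gene, 1019 several and 7317 are unlisted. All members have 1 cluster each.

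On log2(intensity + 16), limma 3.58.1 (lmFit, eBayes; R 4.3.3) fitted the 8 arrays together, with 1 mean for each line, which leaves 4 residual degrees of freedom. P-values were adjusted by Benjamini-Hochberg over all clusters, with a threshold of 0.05. The fit was tested on simulated data. As alternatives, arrays were quantile normalized or centred on their medians, the dimmest 25% of clusters were dropped, the pseudocount was 1 or 64, the replicate number was a block, and each array was left out. All values of arrays are given for members that passed on either scale with arrays apart, and for extremes of brightness. Other named genes illustrate counts and were picked with their values known, as was the block beside the collagen IV pair. The members and lists were chosen with earlier results of these data known. Promoters and gene order come from RefSeq (GRCm38.p6). Array number sets the precision. Figures were drawn with matplotlib 3.10.9.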

Additional observations from a re-analysis of the deposited data

Results flagged for a closer look

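For 4 members every α9 array lay on one side of the null arrays and every α3α9 array on the other side of the α3 arrays. The share of all clusters with this pattern was not counted, so the count is not a result about the matrix genes. The interaction test of that difference did not pass for any of them. The α9 difference of Tgfbi was 0.91 without α3 and -0.32 with it, an interaction of -1.23 (SE 0.29, adjusted p = 0.294 by limma). That of Tinagl1 was 0.28 without α3 and -0.71 with it, an interaction of -0.996 (SE 0.31, adjusted p = 0.573). That of Col4a1 was -0.55 without α3 and 0.16 with it, an interaction of 0.71 (SE 0.31, adjusted p = 0.86). Lum, the small proteoglycan lumican, gave 0.17 and -0.18, an interaction of -0.36 (SE 0.27, adjusted p = 1.0), at intensities between 25.5 and 35.9 on all arrays.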

How the results depend on the processing

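Counts of members past the threshold moved with the scaling and with single arrays, while the single calls kept their direction. With quantile normalization the counts were 6, 11 and 12 for α3 against null, α3α9 against α9 and their average, against 2, 3 and 6 on the deposited scale, and 8 and 8 for α9 against null and α3α9 against α3, against 2 and 2. Centring on array medians gave 4, 11, 10, 5 and 10 in the same order. Leaving out the lowest 25% of clusters left 41 members and gave 6 for α3α9 against α9. A pseudocount of 1 gave 1 for α3 against null, 3 for the average, and 1 and 1 for the α9 comparisons, and a pseudocount of 64 gave 4 for α9 against null. Leaving out each array in turn gave 0 to 2, 1 to 4, 3 to 6, 0 to 4 and 1 to 3 in the same order. The interaction count was 0 in the main setting and in all 14 alternatives. Of 210 values of the 15 single member calls under the 14 alternatives, 160 kept their call, 50 lost it and 0 reversed, and of 434 values of 31 calls of other genes 316, 118 and 0 did so. A line reduced to 1 array was taken to have the spread of the other lines. The causes were not tested.

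The deviations of same-numbered arrays correlated at -0.21 to 0.073. This does not show that replicate numbers pair the samples, and with 2 arrays in each line it cannot exclude it. With the replicate block the average gave 4 and the α9 comparisons 1 and 1, with 2 and 3 for the single α3 comparisons. The member calls lost under the block were those of Col4a2 and Col12a1 in the average, Tgfbi for α9 against null and Lamc1 for α3α9 against α3. Those of other genes were Dsg3 and Col17a1 in the average, Dag1 for α9 against null, and P3h2 and Itgb5 for α3α9 against α3. Values near background are least certain, since no background measure was used.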
